A study of Mus musculus with 11 samples.

Results

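RNA of fetal livers lacking TNFR1 was compared with that of WT fetal livers, to ask whether loss of this receptor on its own changes the organ. The comparison takes 5 of the 11 livers of the series, chosen by the genotype in their labels. They are 3 livers labelled WT and 2 labelled TNFR1KO, which are called *Tnfr1*-/- here. All were single livers of E15.5 embryos that had no treatment, from mice kept on a C57BL/6 N background, and the *Tnfr1*-/- embryos carried no other engineered allele named in the labels. The other 6 livers come from *Casp8*-/- *Mlkl*-/- and *Casp8*-/- *Tnfr1*-/- embryos, 3 of each, and enter only where they are named. The sources used here do not give the litters of these 5 livers. In the paper, *Tnfr1*-/- embryos at E15.5 are shown as littermates of *Casp8*-/- *Tnfr1*-/- embryos. The offspring it counts came from crosses of *Casp8*+/- mice that all lacked *Tnfr1*, and such crosses yield no WT embryo. Genotype therefore cannot be told apart from litter or collection. With single livers as replicates, p values measure the spread between these 5 livers.

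TNFR1, encoded by *Tnfrsf1a*, is the main receptor for the cytokine TNF. Ligand binding assembles TRADD, RIPK1, TRAF2 and the cIAP ubiquitin ligases at the receptor, and this complex activates the IKK kinases and NF-kB, which induces cytokines, survival genes and its own inhibitors. When NF-kB output or caspase-8 fails, the same receptor can start apoptosis or necroptosis. The fetal liver is at this age the main site of blood formation, so its RNA is a mixture of erythroid and other blood precursors, hepatoblasts and stromal cells.

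The livers had gene counts that summed to 23129212 to 35819339, with the most reads in *Tnfr1*-/- replicate 1. Of 52636 genes in the tables, 26947 had at least 1 count in these livers and 16234 passed the filter on low counts and were tested. Levels are given as CPM, counts per 1000000 reads of the normalized library size, and a change as the log2 fold change of *Tnfr1*-/- over WT. A gene was called at an adjusted p under 0.05 in edgeR's quasi-likelihood test over all genes. Pearson's r of log2 CPM across genes, which are not independent replicates, was 0.9935 between the *Tnfr1*-/- livers, at least 0.9873 between WT livers and 0.9877 to 0.9913 between the genotypes. Hepatocyte markers summed to 69342 to 90341 CPM and erythroid markers to 67863 to 87847 CPM in the 5 livers. The pancreas and gut genes *Ptf1a*, *Pdx1*, *Ins2*, *Gcg*, *Cdx1* and *Cdx2* were too low to be tested. Y chromosome genes were read in all 5 livers.

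The targeted gene was examined first. *Tnfrsf1a* (GRCm38 chromosome 6, 125349362 to 125362484, plus strand) measured 54.4, 55.2 and 48.7 CPM in the WT livers and 51.6 and 52.5 CPM in the *Tnfr1*-/- livers. The *Tnfr1*-/- values lie inside the WT range. The log2 fold change was -0.02 (95% interval -0.18 to 0.14, edgeR adjusted p = 0.92), so a fall of the whole-gene count by 1.5-fold lies outside the interval. An exact two-sided permutation test over the 10 splits of the livers gave p = 1, and the smallest p that 2 against 3 livers allow in this test is 0.2. Reads on the gene as a whole therefore do not check the genotype. The part of the gene removed in this allele is not given in the sources used here, and an allele that interrupts the gene can still be transcribed. The livers are called *Tnfr1*-/- on the strength of their labels.

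What 2 against 3 livers can show was set by the spread of each gene. The common biological coefficient of variation was 7.87% in these 5 livers, against 33.3% when all 11 livers were fitted together. At the p value of the last gene called here, 7.94e-04, the median tested gene needed an observed change of 1.43-fold to be called, and 1.19-fold to pass an unadjusted p of 0.05. A gene that changed alone, and so had to pass the adjustment over all 16234 genes by itself, would need an edgeR p of 3.08e-06, which at the median takes 1.92-fold. Level decided most of this. Genes over 100 CPM could be called from 1.22-fold and those of 30 to 100 CPM from 1.26-fold, whereas genes of 3 to 10 CPM needed 1.73-fold and those under 1 CPM 4.13-fold. Changes of 1.5-fold or less could be called in 55.6% of tested genes and changes of 2-fold or less in 72.9%. The 95% interval of the change lay within 2-fold in either direction for 82.8% of genes and within 1.5-fold for 65.3%. In genes under 1 CPM it lay within 2-fold for 11.5%, and no change of 2-fold or less could be called there.

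**Figure D1:**
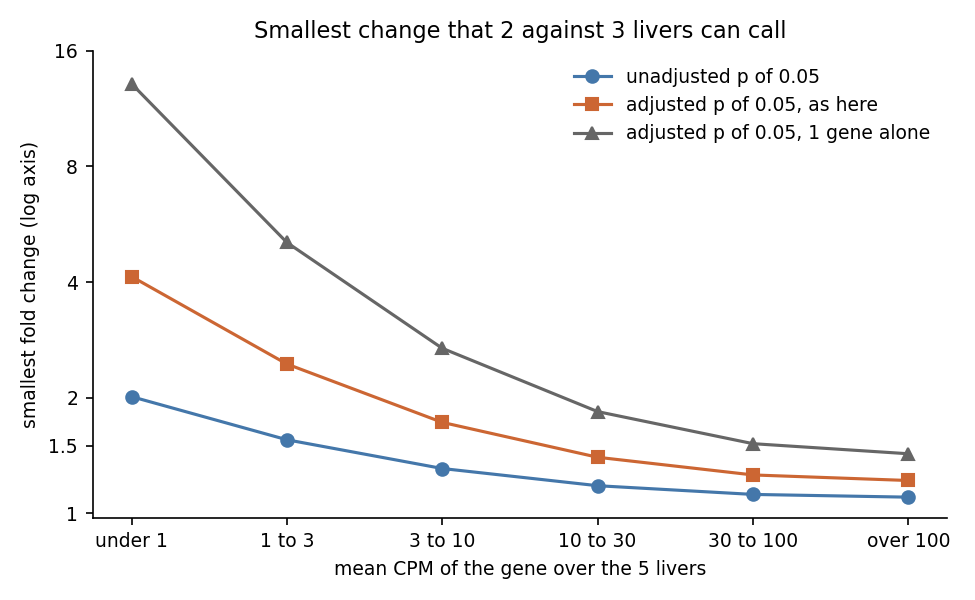
Median smallest observed fold change (log axis) that passes an unadjusted p of 0.05, the adjusted threshold as met here, or the adjusted threshold for a gene changing alone, in 6 classes of mean CPM over the 5 livers. The adjusted threshold falls from 4.13-fold for genes under 1 CPM to 1.22-fold for genes over 100 CPM.

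Against WT, 259 genes (1.6% of those tested) were called. Of these, 138 were higher (0.85%) and 121 lower (0.745%) in *Tnfr1*-/- livers. The changes were small, with a median of 1.31-fold over the called genes. Only 12 of the 259 changed at least 2-fold, all of them higher. The 5 livers did not overlap between genotypes in 2972 genes that were higher (18.3%) and 2980 that were lower (18.4%), and 3084 genes (19%) had an unadjusted p under 0.05. The median log2 fold change of all tested genes was 0.01. The calls rest on a few livers and on how the spread is estimated. Without WT replicate 2, 0 genes were called higher and 3 lower. Without either *Tnfr1*-/- liver no gene passed edgeR's test, while 1852 without replicate 1 and 1776 without replicate 2 had an unadjusted p under 0.05. With all 4 genotypes in the fit edgeR called 0 genes, 186 having an unadjusted p under 0.05, and in these 5 livers DESeq2 called 266 higher and 334 lower and limma-voom 185 and 158.

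The 10 genes with the smallest p among those higher included several made by hepatocytes. *C8a*, a chain of the complement component that starts the membrane pore, measured 61.5, 58.7 and 57.9 CPM in WT and 81.2 and 81.6 CPM in *Tnfr1*-/- livers (log2 fold change 0.46, edgeR adjusted p = 0.019). *Uroc1*, the urocanate hydratase of histidine breakdown, measured 120.2, 99.0 and 109.1 CPM against 150.05 and 161.5 CPM (0.51 on the log2 scale, edgeR adjusted p = 0.023). In both genes the 2 *Tnfr1*-/- livers lay above all WT livers, by more than the range of the WT livers.

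The inflammasome sensor *Nlrp6* measured 56.5, 44.0 and 48.6 CPM in WT and 74.1 and 81.9 CPM in *Tnfr1*-/- livers (log2 fold change 0.65, edgeR adjusted p = 0.020). The amine oxidase gene *Aoc2* measured 25.4, 22.2 and 24.2 CPM against 36.6 and 38.3 CPM (0.65, edgeR adjusted p = 0.019). The other leading genes were long. *Zfp618*, a zinc finger gene, *Plxnb1*, a receptor for a semaphorin, *Dst*, a linker of the cytoskeleton, and *Ank3*, which encodes ankyrin-G, rose by 0.46 to 0.58 on the log2 scale. *Zfp618* stood at 29.5 to 30.5 CPM in WT and at 43.4 and 45.5 CPM in *Tnfr1*-/- livers, and *Dst* at 65.2 to 75.7 CPM and 101.5 and 101.1 CPM. The last of the 10, *Gm42418*, lies over a stretch of ribosomal RNA sequence and measured 30.0 to 32.4 CPM against 44.1 and 46.6 CPM, so its count may hold reads of ribosomal RNA.

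Several of the 10 leading genes among those lower encode parts of mitochondria. *Ndufa2* of respiratory complex I, *Uqcrh* of complex III and *Cox6a1* of complex IV fell by 0.44, 0.39 and 0.42 on the log2 scale (edgeR adjusted p = 0.023 for each). *Uqcrh* measured 101.9, 100.7 and 99.2 CPM in WT and 75.7 and 78.0 CPM in *Tnfr1*-/- livers. *Chchd2*, a protein of the space between the mitochondrial membranes, measured 73.0, 76.8 and 82.0 CPM against 53.7 and 54.2 CPM. *mt-Nd6*, a complex I subunit encoded on the light strand of mitochondrial DNA, measured 34.3, 36.4 and 46.5 CPM against 22.3 and 18.2 CPM, and since the use of strand in counting is not given, reads of the opposite strand may be part of it. No list of respiratory chain genes was compared, so these are single genes.

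The other genes of this group have various roles. *Glrx5*, a mitochondrial glutaredoxin needed for iron-sulfur clusters and heme, had 340.7, 339.6 and 347.8 CPM in WT and 243.9 and 251.7 CPM in *Tnfr1*-/- livers (log2 fold change -0.47, SE 0.06, edgeR adjusted p = 0.018). *Ccnd3*, the D cyclin that times erythroid divisions, had 359.6, 352.1 and 364.5 CPM against 262.2 and 279.7 CPM (-0.41 on the log2 scale, edgeR adjusted p = 0.023). *Cited4*, a partner of the coactivators CBP and p300, had 98.9, 97.6 and 110.1 CPM against 62.8 and 64.4 CPM (-0.69, edgeR adjusted p = 0.0050). *Nme1*, a nucleoside diphosphate kinase, fell by 0.39 on the log2 scale (edgeR adjusted p = 0.023). All 20 leading genes kept their direction under every alternative run. These genes were chosen by smallest p and do not overlap between genotypes, so leaving out a liver could hardly turn their direction. They kept their call too, except that 0 were called with all 4 genotypes in the fit, 2 without WT replicate 2 and 0 without either *Tnfr1*-/- liver, and except where trends with gene width were removed, as given further on.

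**Figure D2:**
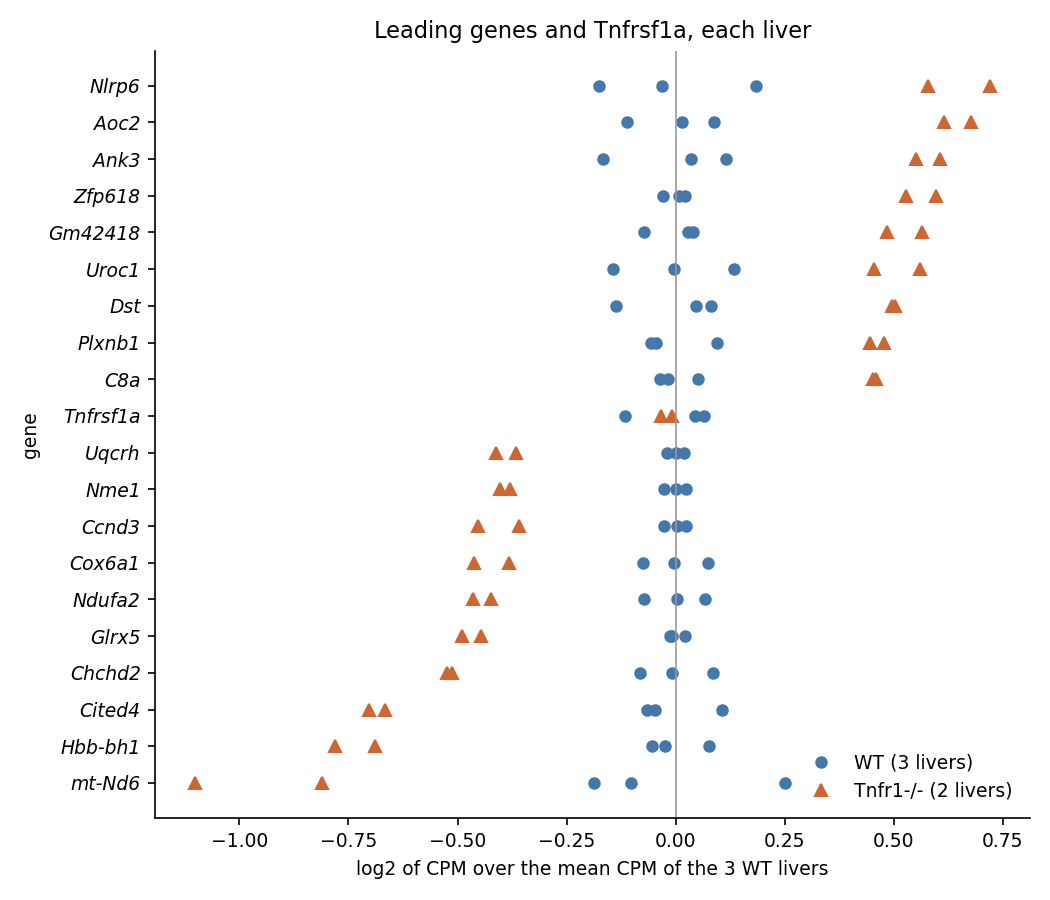
Level of leading genes of each direction and of *Tnfrsf1a* in each liver, as log2 of its CPM over the mean of the WT livers. Circles are the 3 WT and triangles the 2 *Tnfr1*-/- livers. The genotypes do not overlap in the leading genes, which were picked by smallest p in these same livers. Both *Tnfr1*-/- values of *Tnfrsf1a* lie inside the WT range.

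NF-kB targets were taken from a list of 87 genes grouped by role, of which 66 were tested. The remaining 21, among them *Il1b*, *Ptgs2*, *Nos2*, *Sele* and *Cxcl2*, had counts too low to test, from 0 to 15 per liver. Only *Slc39a14* was called higher and 0 genes lower, beside 1.6% of all tested genes, with 5 higher and 6 lower at an unadjusted p under 0.05. DESeq2 called 1 higher and 1 lower and limma-voom 1 higher. The median log2 fold change was 0.04 (quartiles -0.15 and 0.23), beside 0.01 (quartiles -0.13 and 0.16) for all genes. In 15 targets both *Tnfr1*-/- livers were above and in 9 below all WT livers, beside 18.3% and 18.4% of all tested genes. The 95% interval excluded a 2-fold change in 54 of the 66 and a 1.5-fold change in 38. A 2-fold change could have been called in 49 of them and a 1.5-fold change in 28.

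These genes are known for kappa B sites near their starts, and a few are shown because they mark the promoters the comparison asks about. RefSeq gives promoter windows on GRCm38.p6 for 66 of the 87 genes, from 250 bases before to 50 after the start. The kappa B consensus, searched on both strands, was found in a window of 23 of these genes (34.8%), beside 1388 of 27025 genes with a window (5.14%). It was found in 4.21% of the windows of genes called higher and 6% of those called lower, beside 6.2% for tested genes. A match is a description of the letters, not of a bound site. The stretches below run 5′ to 3′ on the strand of the gene and have the match in capitals. Each match lies before a transcript start that RefSeq gives, which in *Nfkb2* and *Tnfaip3* is an alternative start inside the gene as GENCODE annotates it.
*Nfkbia*, chr12:55492657-55492686, minus strand: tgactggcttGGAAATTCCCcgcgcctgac
*Tnfaip3*, chr10:19015403-19015432, minus strand: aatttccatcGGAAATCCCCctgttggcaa
*Nfkb2*, chr19:46304688-46304717, plus strand: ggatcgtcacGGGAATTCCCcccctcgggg
*Cxcl1*, chr5:90891164-90891193, plus strand: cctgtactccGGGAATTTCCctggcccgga
*Cxcl10*, chr5:92348973-92349002, minus strand: cggtttacagGGGACTTCCCtcgggttgcg
*Ier3*, chr17:35821611-35821640, plus strand: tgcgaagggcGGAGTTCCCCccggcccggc

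The feedback inhibitors, which end an NF-kB response, showed no call among 11 tested. *Nfkbia*, which encodes IkB-alpha, measured 11.6, 13.6 and 14.0 CPM in WT and 10.4 and 11.3 CPM in *Tnfr1*-/- livers. Its log2 fold change was -0.28 (95% interval -0.55 to -0.0025, edgeR adjusted p = 0.26). Both *Tnfr1*-/- livers lay just below the WT livers, by less than the range of the WT livers. *Tnfaip3*, which encodes the ubiquitin-editing enzyme A20, measured 7.61, 6.23 and 7.004 CPM against 7.96 and 6.83 CPM (log2 fold change 0.09, 95% interval -0.24 to 0.42). The genotypes overlap in *Tnfaip3*. Among the 11, log2 fold changes ran from -0.28 to 0.31, that of *Tnip2*, and the interval excluded 2-fold in all of them.

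Subunits of NF-kB that are themselves its targets did not pass the test either. *Nfkb1* (p105) measured 52.4, 51.0 and 53.0 CPM in WT and 53.8 and 55.1 CPM in *Tnfr1*-/- livers, and *Nfkb2* (p100) 17.6, 16.7 and 16.9 CPM against 14.8 and 14.0 CPM. The log2 fold change was 0.06 (edgeR adjusted p = 0.67) for *Nfkb1* and -0.24 (edgeR adjusted p = 0.22) for *Nfkb2*. *Relb* had -0.20 and *Rel* 0.25 on that scale. Among 10 tested survival genes, *Birc3*, which encodes cIAP2, measured 13.9, 13.9 and 12.9 CPM against 14.9 and 14.8 CPM (log2 fold change 0.13, 95% interval -0.10 to 0.36). *Ier3*, an early response gene, had the smallest p of this group, with 18.5, 18.1 and 21.5 CPM against 15.46 and 13.0 CPM (log2 fold change -0.44, edgeR adjusted p = 0.080).

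Cytokines and chemokines were low throughout, and only 5 of 13 tested could have been called at 2-fold. *Cxcl10*, a chemokine that interferon also induces, measured 5.55, 5.41 and 4.97 CPM in WT and 3.60 and 2.65 CPM in *Tnfr1*-/- livers. Among targets with a negative change it had the smallest p, at a log2 fold change of -0.75 (95% interval -1.18 to -0.33, edgeR adjusted p = 0.070), and it was not called. *Cxcl1* measured 2.38, 1.86 and 1.06 CPM against 1.81 and 1.34 CPM, and *Ccl2* had 15, 10 and 10 counts against 12 and 8. TNF itself, the ligand, was near the limit of detection with 25, 11 and 6 counts in WT and 11 and 10 counts in *Tnfr1*-/- livers, and *Lta* had 2 to 5 counts per liver. The interval for *Tnf*, from -1.98 to 0.56 on the log2 scale, does not exclude a 2-fold fall.

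Adhesion molecules and receptors gave no call among 11 tested. *Icam1* measured 20.96, 21.1 and 22.2 CPM in WT and 21.5 and 24.6 CPM in *Tnfr1*-/- livers, and *Vcam1* 240.1, 219.2 and 218.1 CPM against 249.1 and 247.3 CPM. Their log2 fold changes were 0.10 and 0.14, with intervals that exclude 1.5-fold in either direction. In *Icam1* the genotypes overlap and in *Vcam1* they do not. The called gene of the list, *Slc39a14*, encodes ZIP14, a carrier of zinc, iron and manganese that inflammation raises in liver. It measured 73.1, 71.0 and 65.2 CPM in WT and 87.6 and 91.6 CPM in *Tnfr1*-/- livers, a log2 fold change of 0.36 (95% interval 0.21 to 0.51, edgeR adjusted p = 0.032), was called in 2 of 5 fits that left out a liver, and had a log2 fold change of 0.31 and an adjusted p of 0.077 once the trend with gene width was removed. The summed level of the list was 4539 and 4669 CPM in *Tnfr1*-/- livers against 3477 to 4487 CPM in WT (exact permutation p = 0.2, the smallest possible). Complement *C3*, named here after its values were seen, made up 1415 to 2260 CPM of that sum in WT and 2355 and 2556 CPM in *Tnfr1*-/- livers, with an edgeR adjusted p of 0.17.

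**Figure D3:**
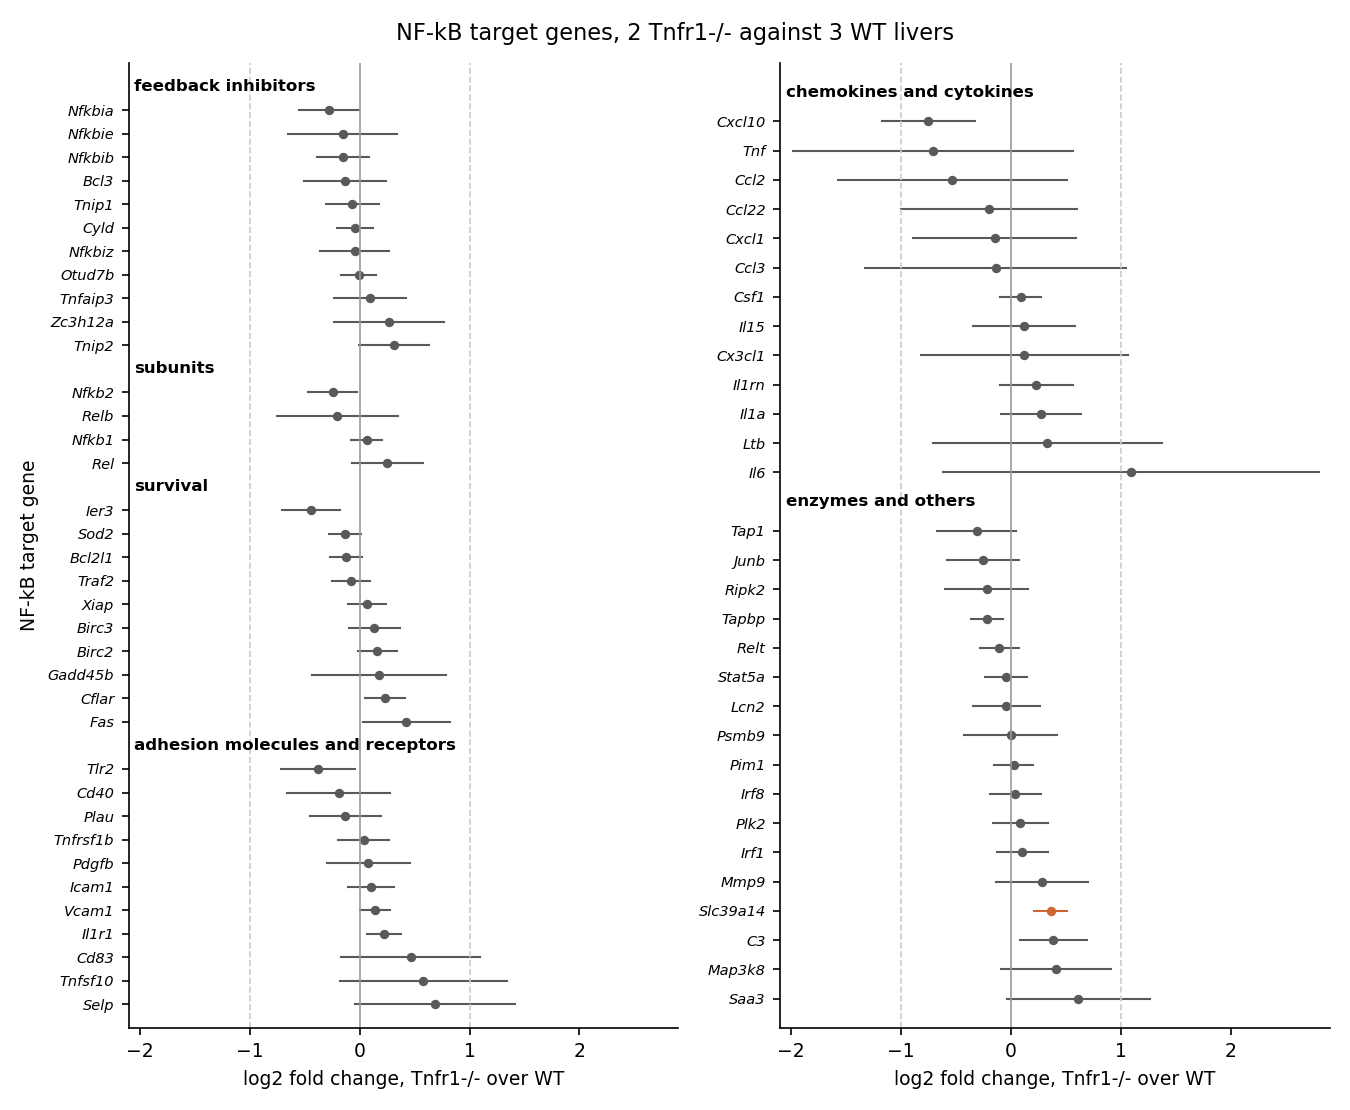
Log2 fold change of *Tnfr1*-/- over WT livers with its 95% interval for the 66 tested NF-kB targets, grouped by role. Dashed lines mark a 2-fold change in either direction. *Slc39a14*, in colour, is the called gene, and the intervals of 54 genes stay between the dashed lines.

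Genes of the receptor's own pathway were measured with better precision. All 31 genes listed for the TNFR1 signalling complex were tested and 0 were called by edgeR, DESeq2 or limma-voom. EdgeR called 1.6% of all tested genes, so 0 of 31 is near that share. At an unadjusted p under 0.05 in edgeR, 2 were higher and 1 lower, beside 19% of all genes in either direction. Every one of the 31 intervals excluded a 1.5-fold change. The median log2 fold change was 0.02 and the values ran from -0.22 to 0.23. The adaptor *Tradd* measured 11.1, 11.9 and 10.7 CPM in WT and 9.74 and 11.4 CPM in *Tnfr1*-/- livers, and the kinase *Ripk1* 46.0, 47.9 and 44.4 CPM against 46.4 and 42.7 CPM. *Casp8*, the protease that cleaves RIPK1, measured 34.7, 31.5 and 28.6 CPM against 35.1 and 31.7 CPM. The genotypes overlap in all 3 genes. The log2 fold changes of *Ripk3* and *Mlkl*, the kinase and the effector of necroptosis, were -0.13 (95% interval -0.35 to 0.09) and -0.09 (-0.47 to 0.30).

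Of 42 ligands and receptors of the TNF family 30 were tested and 0 were called by any of the 3 tools. This is near the 1.6% of all tested genes that edgeR called. At an unadjusted p under 0.05, 2 were higher and 1 lower, beside 19% of all genes in either direction. *Tnfrsf1b*, which encodes TNFR2, the other TNF receptor, measured 35.0, 33.8 and 26.8 CPM in WT and 32.0 and 33.3 CPM in *Tnfr1*-/- livers (log2 fold change 0.04, 95% interval -0.20 to 0.27). *Ltbr*, the lymphotoxin receptor gene beside *Tnfrsf1a*, measured 50.4, 50.4 and 45.0 CPM against 49.1 and 49.8 CPM (0.03, interval -0.14 to 0.19). Both genes overlap between genotypes, and both intervals exclude a 1.5-fold change. Of 50 interferon-stimulated genes, 47 were tested and 0 were called by any of the 3 tools, again near the share of all genes. At an unadjusted p under 0.05, 3 were higher and 1 lower, beside the same 19% of all genes. Their median log2 fold change was 0.02, and 37 of the 47 intervals excluded a 2-fold change.

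Genes on chromosome 6 near *Tnfrsf1a* were examined because DNA of the strain in which an allele was made can stay linked to it through breeding. Within 10 Mb of its start lie 661 annotated genes, of which 341 had a count and 197 were tested. One was called higher and 0 lower, which is 0.508% beside 1.6% of all tested genes. Their median log2 fold change was 0.07, and 18.8% had an unadjusted p under 0.05, beside 19%. Within 1 Mb, edgeR, DESeq2 and limma-voom each called 0 of 40 tested genes. There 11 genes (27.5%) had an unadjusted p under 0.05, 4 higher and 7 lower, and 35 of the 40 intervals excluded a 2-fold change.

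The nearest tested genes upstream, *Scnn1a* (a sodium channel subunit), *Ltbr* and *Cd27* (a receptor of lymphocytes), had log2 fold changes of 0.10, 0.03 and 0.55, with edgeR adjusted p of 0.42 or more. The nearest downstream, *Plekhg6*, *Cd9* (a tetraspanin) and *Vwf* (von Willebrand factor), had 0.27, 0.16 and 0.39, with adjusted p of 0.18 or more. *Cd9* measured 58.9, 57.3 and 58.6 CPM in WT and 64.4 and 65.4 CPM in *Tnfr1*-/- livers. The called gene, *Cracr2a* (chromosome 6, 127561338 to 127674248, 2.21 Mb downstream), encodes a calcium sensor of store-operated calcium entry. It measured 5.35, 5.67 and 4.72 CPM in WT and 9.03 and 8.69 CPM in *Tnfr1*-/- livers, a log2 fold change of 0.76 (SE 0.15, edgeR adjusted p = 0.033). It was called in 2 of 5 fits that left out a liver. With the trend with gene width removed it had a log2 fold change of 0.65 and an adjusted p of 0.077. Limma-voom called it too, while DESeq2 gave it no adjusted p. DESeq2 called 0 flanking genes higher and 3 lower, and limma-voom 1 higher and 1 lower.

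The other 6 livers give a look at the same region without sharing a library, since *Casp8*-/- *Tnfr1*-/- livers carry the *Tnfr1* allele and *Casp8*-/- *Mlkl*-/- livers do not. This contrast also differs in *Mlkl* and in the state of the livers. The paper reports macrophage aggregates and raised interferon-stimulated genes in *Casp8*-/- *Tnfr1*-/- fetal livers at E15.5. The lowest of these livers had 0 CPM of the Y chromosome gene *Eif2s3y*, against 44.5 to 55.9 CPM in *Casp8*-/- *Mlkl*-/- livers. The biological coefficient of variation of the contrast was 41.7%. Over all genes, 10 of 16353 were higher (0.0612%) and 1 was lower (0.00612%) in *Casp8*-/- *Tnfr1*-/- livers. Of the 188 flanking genes tested there, edgeR called 0, and 19 had an unadjusted p under 0.05. *Cracr2a* had a log2 fold change of 0.66 in that contrast (SE 0.29, edgeR adjusted p = 0.69). The direction was the same as in *Tnfr1*-/- against WT livers. On a normalization common to all livers, *Cracr2a* measured 4.6 to 5.5 CPM in WT and 8.4 and 8.7 CPM in *Tnfr1*-/- livers. It measured 6.3 to 9.2 CPM in *Casp8*-/- *Mlkl*-/- and 8.9 to 14.6 CPM in *Casp8*-/- *Tnfr1*-/- livers. The *Casp8*-/- *Mlkl*-/- livers, without the *Tnfr1* allele, thus also lay above every WT liver and overlapped the *Tnfr1*-/- livers. Whether the level of *Cracr2a* follows the allele was not tested.

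**Figure D4:**
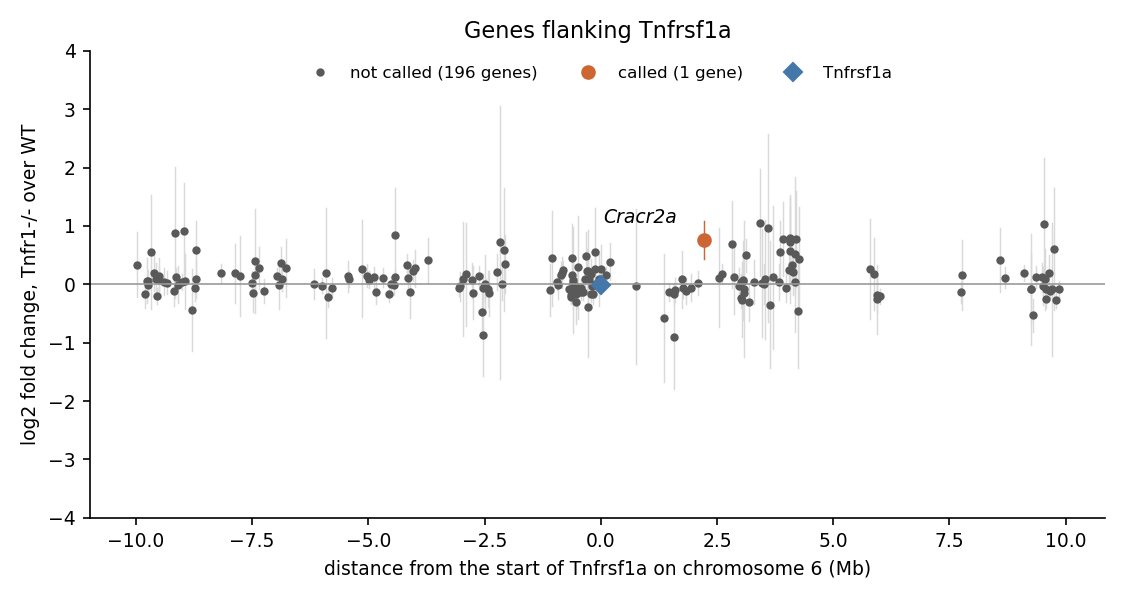
Log2 fold change of *Tnfr1*-/- over WT livers, with 95% intervals as vertical lines, for 197 tested genes within 10 Mb of *Tnfrsf1a*, by distance from its start. *Cracr2a*, 2.21 Mb downstream, is the only called gene, and *Tnfrsf1a* itself (diamond) lies at -0.02.

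The genes called genome-wide were then followed into the same contrast of the other 6 livers, with the differences in genotype and state given above. Of the 138 called higher in *Tnfr1*-/- livers, 41 had the same sign there (29.7%), and of the 121 called lower, 85 (70.2%), beside 52.9% of all genes tested in both. Both sets leaned negative there, with median log2 fold changes of -0.25 and -0.14, beside -0.03 for all genes. The 2 shares therefore do not measure agreement with the direction in *Tnfr1*-/- livers. EdgeR called 0 of these genes there, with an unadjusted p under 0.05 in 14 of the 138 and 3 of the 121. *Nlrp6* and *Uroc1*, higher in *Tnfr1*-/- livers, had log2 fold changes of -1.20 and -1.29 in *Casp8*-/- *Tnfr1*-/- against *Casp8*-/- *Mlkl*-/- livers. *Cited4* and *Ccnd3* had -1.16 and -0.27, the direction they had in *Tnfr1*-/- livers.

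All 7 hemoglobin genes had negative log2 fold changes, with a median of -0.41, and in 6 the *Tnfr1*-/- livers lay below every WT liver, beside 18.4% of all tested genes. *Hbb-bh1*, an embryonic beta-like globin, was called lower with 48.9, 45.6 and 44.7 CPM in WT and 28.8 and 27.0 CPM in *Tnfr1*-/- livers (log2 fold change -0.73, SE 0.08, edgeR adjusted p = 0.0050). *Hba-a2*, an adult alpha globin, was called lower with 4816, 4208 and 4307 CPM against 3260 and 3431 CPM (-0.41, edgeR adjusted p = 0.034). Reads of *Hba-a2* and *Hba-a1*, which are near-identical, may have been divided unevenly between them, and *Hba-a1* itself had 7108 to 9282 CPM against 6557 and 6300 CPM (edgeR adjusted p = 0.15). *Hbb-bh1* was called in 3 and *Hba-a2* in 2 of 5 fits that left out a liver.

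The embryonic globin *Hbb-y* varied most among WT livers, at 50.6, 56.2 and 119.6 CPM, against 45.9 and 33.5 CPM in *Tnfr1*-/- livers. Embryonic globins decline with the replacement of primitive red cells, so their level moves with developmental time, and how closely the embryos were matched within E15.5 is not given. Summed over the 7 genes, hemoglobin was 62944, 53678 and 52451 CPM in WT and 50010 and 43781 CPM in *Tnfr1*-/- livers (exact permutation p = 0.2, the smallest possible). In whole livers, fewer cells of a type and less RNA per cell cannot be told apart. Among 24 tested erythroid markers, which include these genes, only the 2 hemoglobin genes were called. DESeq2 called 7 lower and limma-voom 5. All 7 hemoglobin genes are under 1 kb wide in the deposited tables, and with the trend with gene width removed their median was -0.31 and *Hbb-bh1* stayed called (edgeR adjusted p = 0.015) while *Hba-a2* did not (0.093).

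Other cell types of the liver were read from their marker lists. Hepatocyte markers had positive log2 fold changes in 18 of 22 tested, beside 51.5% of all tested genes, with a median of 0.14. Of them 9 were higher and 0 lower at an unadjusted p under 0.05, beside 19% of all genes in either direction, and 1 was called higher, beside 0.85%. This was *Apob*, the protein of lipoprotein particles, at 1928, 1932 and 1688 CPM in WT and 2496 and 2254 CPM in *Tnfr1*-/- livers (log2 fold change 0.36, edgeR adjusted p = 0.047). *Cps1*, the first enzyme of the urea cycle, ranged widely in WT at 75.4, 57.3 and 35.2 CPM against 112.9 and 95.3 CPM and was not called (edgeR adjusted p = 0.051). The summed hepatocyte level was 84375, 73369 and 69342 CPM in WT and 90341 and 83137 CPM in *Tnfr1*-/- livers, so the genotypes overlapped (exact permutation p = 0.4). The part of the cell mixture in the genes called was not tested.

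All 12 megakaryocyte markers had positive log2 fold changes, beside 51.5% of all tested genes, with a median of 0.39. Of them 7 were higher and 0 lower at an unadjusted p under 0.05, beside 1531 and 1553 of 16234 genes. In 7 both *Tnfr1*-/- livers lay above every WT liver, beside 18.3% of all tested genes, and 1 was called higher, beside 0.85%. *Gp6*, the collagen receptor of platelets, measured 6.18, 4.89 and 7.82 CPM in WT and 11.8 and 10.6 CPM in *Tnfr1*-/- livers (log2 fold change 0.83, edgeR adjusted p = 0.041). The summed level of the list overlapped between genotypes, at 376 to 636 CPM in WT and 732 and 629 CPM in *Tnfr1*-/- livers (exact permutation p = 0.4). All 12 tested B lineage markers were likewise positive, with a median of 0.43, and edgeR and limma-voom called 0 and DESeq2 1. In edgeR 4 of these markers were higher at an unadjusted p under 0.05, beside 1531 of 16234 genes. Their sum was 52.8, 41.4 and 33.3 CPM in WT and 58.3 and 63.4 CPM in *Tnfr1*-/- livers (exact permutation p = 0.2, the smallest possible), and none of these 12 genes could have been called at 1.5-fold.

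Of 19 macrophage markers *Mertk*, a receptor for dying cells, was called higher, at 32.7, 31.0 and 30.6 CPM in WT and 43.0 and 41.6 CPM in *Tnfr1*-/- livers (log2 fold change 0.43, edgeR adjusted p = 0.026). The median of that list was 0.07. *Apob* and *Gp6* were each called in 1 and *Mertk* in 2 of 5 fits that left out a liver, and none of these 3 was called with the trend with gene width removed (adjusted p of 0.060 or more). Their log2 fold changes were then 0.18 for *Apob*, 0.76 for *Gp6* and 0.40 for *Mertk*. Neutrophil, endothelial, stellate and stem cell markers gave 0 edgeR calls. At an unadjusted p under 0.05 stood 2 of 18, 1 of 14, 0 of 14 and 4 of 14 tested members, beside 19% of all genes. DESeq2 called 1 neutrophil marker higher. The medians of these lists were, in the same order, 0.02, -0.04, -0.15 and 0.13.

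The change also followed the width of genes, which is the exon length the authors deposited. Genes under 1 kb had a median log2 fold change of -0.09, those of 2 to 4 kb -0.01 and those over 8 kb 0.14. The called genes fell the same way, with a median width of 5176 bases in those higher and 1289 bases in those lower, beside 2960 bases for all tested genes. Of 958 genes over 8 kb, 38 were called higher and 0 lower. Of 1656 genes under 1 kb, 2 were called higher and 37 lower. In each liver, the median deviation from the WT mean of genes over 8 kb was set against that of genes under 1 kb, which centres the WT livers near 0 by construction. The difference was -0.06, 0.04 and 0.02 in WT livers and 0.19 and 0.22 in *Tnfr1*-/- livers. It was 0.23 to 0.33 in *Casp8*-/- *Mlkl*-/- livers, which carry no *Tnfr1* allele, and 0.18 to 0.68 in *Casp8*-/- *Tnfr1*-/- livers. Thus the 3 WT livers stood apart from all 8 others in this measure, and not only from those that lack TNFR1. Reads on genes made up 80.68 to 83.37% of the read totals behind the RPKM values in WT livers and 78.6 and 78.3% in *Tnfr1*-/- livers. The share was 79.95 to 82.72% in *Casp8*-/- *Mlkl*-/- and 76.51 to 80.66% in *Casp8*-/- *Tnfr1*-/- livers. Only *Casp8*-/- *Mlkl*-/- replicate 1, at 82.72%, lay inside the WT range. Every other liver with the shift lay below it, *Casp8*-/- *Tnfr1*-/- replicate 2 only just, at 80.66%. The part of RNA quality or library preparation in these differences was not tested.

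**Figure D5:**
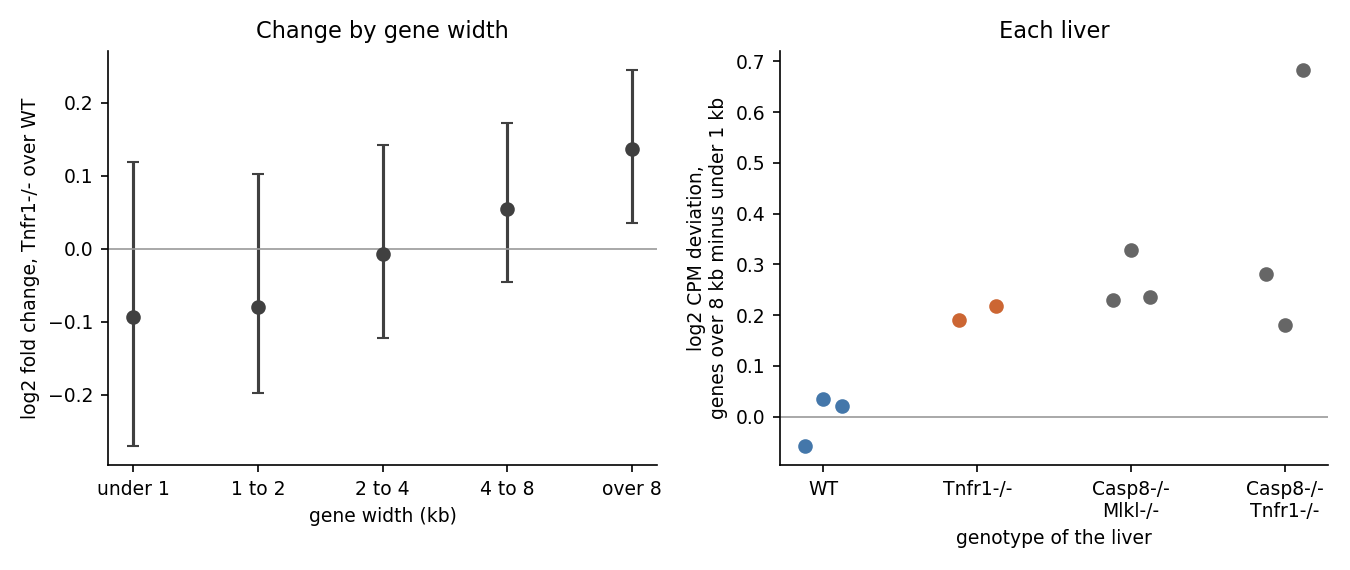
Left, median log2 fold change of *Tnfr1*-/- over WT livers by gene width, with quartiles as bars. Right, the difference in each of the 11 livers between the median deviation of genes over 8 kb and under 1 kb, taken from the WT mean. The medians climb from -0.09 to 0.14, and the 8 livers that are not WT sit at 0.18 or higher.

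With each liver's trend with gene width removed, an alternative chosen after seeing the data, 25 genes (0.154%) were called, 16 higher and 9 lower, 24 of them among the 259. Of the 20 leading genes 13 stayed called. Among these, *Aoc2*, *C8a*, *Nlrp6*, *Uroc1*, *Gm42418* and *Zfp618* remained higher, and *Cited4*, *Hbb-bh1*, *Glrx5*, *Ccnd3*, *Nme1* and *mt-Nd6* remained lower. *Dst* dropped to a log2 fold change of 0.23 (edgeR adjusted p = 0.17). *Plxnb1*, *Ank3*, *Chchd2*, *Ndufa2*, *Uqcrh* and *Cox6a1* had adjusted p of 0.054 to 0.077.

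Levels in all 11 livers, on a common normalization, show where genes called here stand beside livers with an intact *Tnfr1* gene but no caspase-8 or MLKL. *Glrx5* measured 329 to 337 CPM in WT, 236 and 242 CPM in *Tnfr1*-/-, and 193 to 276 CPM in *Casp8*-/- *Mlkl*-/- livers. *Ccnd3* measured 341 to 353, 253 and 269, and 192 to 287 CPM in the same order, and *Nme1* 103 to 107, 79.2 and 80.1, and 73.3 to 80.7 CPM. In these 3 genes the *Casp8*-/- *Mlkl*-/- livers, like the *Tnfr1*-/- livers, lay below every WT liver, and so did the *Casp8*-/- *Tnfr1*-/- livers. In other leading genes the *Casp8*-/- *Mlkl*-/- livers also left the WT range on the side of the *Tnfr1*-/- livers. They lay above it in *Dst*, *Plxnb1*, *Ank3* and *Zfp618*, and below it in *Hbb-bh1*, *Chchd2*, *mt-Nd6*, *Ndufa2*, *Uqcrh* and *Cox6a1*. They overlapped WT livers in *C8a*, *Uroc1*, *Nlrp6*, *Gm42418*, *Cited4* and *Aoc2*. *Aoc2* measured 21.5 to 24.7 CPM in WT and 35.4 and 36.8 CPM in *Tnfr1*-/- livers. It measured 15.6 to 29.4 CPM in *Casp8*-/- *Mlkl*-/- and 5.19 to 25.9 CPM in *Casp8*-/- *Tnfr1*-/- livers. Both *Tnfr1*-/- livers stood above the other 9 in *Aoc2*, and the other livers that carry the *Tnfr1* allele did not share that level. These comparisons share the WT livers and were not tested against each other.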

How the data were processed

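Livers were grouped by the genotype in their labels. Per the labels, single livers of E15.5 embryos were used. The authors aligned reads to GRCm38 with GSNAP and used limma. The counting tool, annotation release and use of strand are not given in the sources used here, and the labels and the study's methods name different library kits and sequencers. The deposited tables give raw counts per gene, RPKM, and the exon width of each gene in bases. The RPKM values of the authors served only to recover the read total behind them.

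Counts were tested with edgeR (version 4.0.16) in R (version 4.3.3), using the quasi-likelihood test with genotype as the only term, TMM scaling, edgeR's filter on low counts with a minimum count of 10, and Benjamini-Hochberg adjustment over 16234 genes. Residual degrees of freedom were 3, and 12.4 with the prior. The tool of the authors, limma (version 3.58.1), and DESeq2 (version 1.42.0) were alternatives, as were other filters, scalings, a replicate block, all genotypes in one fit and each liver left out. Removal of trends with gene width, with or without GC content, and robust edgeR estimation were chosen after seeing the data. Scripts were tested on simulated data. Exact two-sided permutation tests over livers were run in scipy (version 1.17.1). Positions come from GENCODE release M21, which held 52489 of the 52636 genes.

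Members and gene lists were chosen with earlier results of these data known. Named genes were *Tnfrsf1a*, the 10 with the smallest p among called genes in each direction, the 3 nearest tested genes on each side of *Tnfrsf1a* and called genes within 10 Mb, called members and the 2 highest and 2 lowest fold changes of each list, a fixed set of TNF and NF-kB genes, and the 3 largest changes in each direction without overlap. Interval and test error covers these 5 livers only. No 2 livers of a group agreed within sampling noise. Some single genes that this rule names are not reported here.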

Additional observations from a re-analysis of the deposited data

How the results depend on the processing

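The counts of called genes depended on the processing. Of genes higher and lower in *Tnfr1*-/- livers, the DESeq2 Wald test called 266 and 334, edgeR with no filter on low counts 594 and 500, and robust edgeR estimation 218 and 215. With all 4 genotypes fitted together 0 and 0 were called by edgeR (186 genes at an unadjusted p under 0.05). Removing the trend with gene width left 16 and 9, and removing trends with width and GC left 55 and 36; these and the robust fit were chosen after seeing the data. Leaving out 1 liver gave 0 to 312 higher and 0 to 274 lower. In the 2 fits without a *Tnfr1*-/- liver, the remaining one is assumed to vary like the WT livers. Genes called within 10 Mb of *Tnfrsf1a*, 1 in the report and higher, were 3 with DESeq2 (all lower), 2 with limma-voom (1 higher, 1 lower), 10 with no filter, 3 with robust estimation, 0 with all genotypes together, 0 with the width trend removed, 0 with the width and GC trends removed, and 0 to 6 with 1 liver left out. A window of 1 Mb held 0. The Tnfrsf1a log2 fold change was 0.0164 with the width trend removed and 0.0127 with the width and GC trends removed, and -0.0804 to 0.0055 with 1 liver left out, and was never called. The median smallest log2 change past an unadjusted p of 0.05 was 0.617 with no filter and 0.745 with all genotypes together, and was not computed for DESeq2. The cause of these shifts was not tested. The NF-kB targets median log2 fold change lay between -0.0267 and 0.106 over all alternatives, each a shift smaller than the spread between WT livers. Of 152 other named genes, none that was called turned direction. The genotypes do not overlap in any of the 259 called genes, so leaving out a liver could hardly turn them.

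Replicate numbers 1 and 2 are shared by the genotypes, but nothing in the labels ties livers of one number together. The correlation of their deviations was 0.117 and 0.131. A fit with the replicate block called 1026 higher and 928 lower, and 24 flanking genes, with 16230 degrees of freedom after pooling across genes.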

Other observations

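Genes listed as acute phase genes, many of which hepatocytes raise in inflammation, had positive log2 fold changes in 17 of 19 tested, beside 51.5% of all tested genes. Their median was 0.30. The 2 with negative changes, *Hamp* (-0.72) and *Lcn2* (-0.04), were not called. *Saa1* and *Saa2* were too low to test, and *Saa3* was not called (edgeR adjusted p = 0.29). Of them 7 were higher and 0 lower at an unadjusted p under 0.05, beside 1531 and 1553 of 16234 genes. *Saa4* was called higher, at 47.1, 40.5 and 38.3 CPM in WT and 56.7 and 53.4 CPM in *Tnfr1*-/- livers (log2 fold change 0.39, edgeR adjusted p = 0.048). It was called in 1 of 5 fits that left out a liver and not with the width trend removed (edgeR adjusted p = 0.065). Summed over the list, the level was 7056, 5552 and 4653 CPM in WT and 7480 and 6786 CPM in *Tnfr1*-/- livers, so the genotypes overlapped (exact permutation p = 0.4).

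Immediate early genes, which respond within minutes to handling and growth signals, were negative in 7 of 9 tested, beside 7871 of 16234 genes. Their median was -0.25. At an unadjusted p under 0.05, 0 were higher and 3 lower, beside 1531 and 1553 of 16234 genes. EdgeR called 1 of the 9 lower, beside 0.745% of all tested genes. *Egr1* was called lower, at 56.7, 44.0 and 78.2 CPM in WT and 30.4 and 33.8 CPM in *Tnfr1*-/- livers (log2 fold change -0.90, edgeR adjusted p = 0.033). It was called in 3 of 5 fits that left out a liver and not with the width trend removed, when its log2 fold change was -0.93 (adjusted p = 0.057). On the Y chromosome, *Eif2s3y* was called higher, at 42.5, 40.8 and 34.5 CPM against 65.3 and 53.8 CPM (edgeR adjusted p = 0.024, and 0.033 with the width trend removed).

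Markers of mast cells, of the NK complex on chromosome 6, of striated muscle, of pancreas, gut and mesothelium, and of hypoxia gave 0 edgeR calls. At an unadjusted p under 0.05 stood 0 of 5, 2 of 11, 0 of 12, 2 of 10 and 1 of 14 tested members, beside 19% of all genes. DESeq2 called 1 of the hypoxia genes and 0 of the others, and limma-voom called 0. Among genes without overlap and over 1 CPM, *Gm37274* was called higher at 0.75, 0.87 and 1.02 CPM in WT and 2.38 and 2.21 CPM in *Tnfr1*-/- livers. *Eps8l1*, at 2.85, 3.16 and 0.24 CPM against 5.69 and 11.8 CPM, and *Capn11*, at 2.89, 2.47 and 4.76 CPM against 0 and 1.82 CPM, were not called.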
